A study of Mus musculus with 6 samples.

Results

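The genes described here are 9 chemokine ligands, Ccl2, Ccl6, Ccl7, Ccl8, Ccl9, Cxcl10, Cxcl12, Cxcl14 and Cx3cl1, and 1 chemokine receptor, Ccr2, in skeletal muscle of mice that lack the proteasome subunit Rpt3 in their muscle fibers. They were taken by gene symbol through the annotation of the array platform, as a list drawn up with earlier results of these data known. All 10 genes had a probe, 11 probes in all, and all 10 were tested among 14732 tested genes, out of 18563 genes with a name on the array. Of the 66 spots of these probes on the 6 arrays, 62 carried the scanner's flag for a good spot, 4 the flag for a signal close to background, and 0 were saturated or left out. Muscle RNA came from 3 Rpt3-/- mice and 3 Rpt3+/+ mice, all female and 6 weeks of age, and was read with 1 dye on CodeLink mouse whole-genome arrays, 1 array per mouse. Rpt3-/- mice carried Mlc1f-Cre and floxed Rpt3 (the gene Psmc4), and the controls, called Rpt3+/+ after the study, carried the same Cre with unfloxed Rpt3, although the sample labels give both groups one strain name. The Mlc1f promoter drives Cre in skeletal muscle, in adults in fast-twitch fibers, so endothelial cells, fibroblasts, blood cells and macrophages within the muscle kept the gene. The sample labels name the tibialis anterior as the muscle, whereas the study's text gives the gastrocnemius for its arrays.

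Chemokines are small secreted proteins that attract leukocytes. They are grouped by the spacing of their first cysteines into the CC (Ccl), CXC (Cxcl) and CX3C (Cx3cl1) classes, and they act through receptors of the G-protein-coupled family on the surface of target cells, while atypical receptors bind ligands without that signal and remove them. Ccl2, Ccl7 and Ccl12 attract Ccr2-bearing monocytes out of the blood, and in injured muscle such monocytes become macrophages that clear dead fibers and support regeneration. Macrophages, endothelial cells, fibroblasts and muscle fibers can all produce chemokines, and RNA from whole muscle does not tell these sources apart. In such bulk RNA more cells of one type cannot be told apart from more RNA per cell.

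The arrays differed in brightness. Between 66.6% and 74.5% of transcript probes were above background on 5 arrays, and 57.0% on the second Rpt3+/+ array, the dimmest, so results that change without this array are given both ways. Psmc4 checked the labels by the brighter of its 2 probes, which had a log2 fold change of -1.17 (limma adjusted p = 0.00031), while its other probe did not pass. The other probe was above background on 2 of the 3 arrays of each group. The position of either probe within Psmc4 was not known, and a probe outside the deleted exons need not follow the deletion. All 8 muscle fiber markers listed were measured, with a log2 intensity of at least 8.22 on each array where the spot was read, so the labelled tissue carried its defining markers. Over all tested genes 1870 were higher (12.7%) and 967 lower (6.56%) in Rpt3-/- mice, 19.3% in either direction, by the linear model limma fitted across all genes and an adjusted p below 0.05. This split became 2555 higher and 602 lower when arrays were scaled by their median instead of quantiles, and 329 higher and 10331 lower when they were scaled by Actb. Actb itself was called higher, with a log2 fold change of 0.45 (limma adjusted p = 0.0294) that missed the threshold without Rpt3-/- array 1 or 3 or Rpt3+/+ array 3 (limma adjusted p from 0.102 to 0.145) and with a replicate block (limma adjusted p = 0.0645), and with arrays scaled by it the median of all genes was -0.72.

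The study's question here is what the loss of the proteasome subunit from muscle fibers does to the muscle. Of the 10 genes, Ccl6, Ccl8, Ccl9, Ccl7 and Ccr2 were higher in Rpt3-/- mice and 0 were lower, a count of 5 beside the 12.7% of all tested genes that were higher, the 6.56% that were lower and the 19.3% called in either direction. The methods' test, an unpaired parametric test named in the study's methods, called 4 higher without adjustment and 3 after Benjamini-Hochberg adjustment, and 0 lower either way. With scaling by Actb, Ccl6 and Ccl8 were higher and Ccl2 and Cxcl12 lower, beside a median of -0.72 over all genes. Before adjustment, 7 had p-values under 0.05 in limma and were higher, the other two of these being Cxcl10 and Cxcl14. The median log2 fold change of the 10 genes was 0.62, beside -0.01 over all tested genes. For 6 of the 10 every Rpt3-/- array lay above every Rpt3+/+ array, as it did for 21.2% of all tested genes, and for 0 of the 10 every Rpt3-/- array lay below, beside 15.6% of all tested genes. Ccl2, Cx3cl1 and Cxcl12 had log2 fold changes between -0.14 and 0.05.

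**Figure D1:**
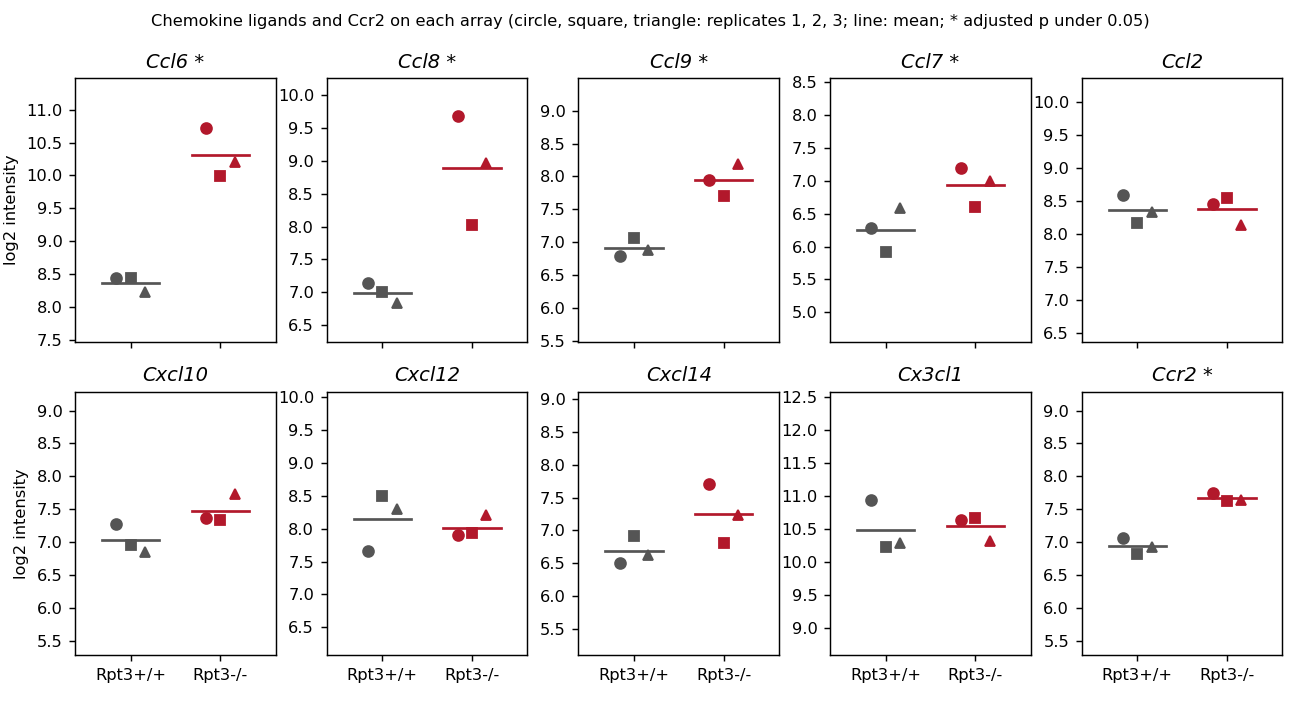
The vertical axis is the normalized log2 intensity of each gene on each array, with the same span in every panel and its own position. Gray symbols are Rpt3+/+ arrays, red symbols are Rpt3-/- arrays, circle, square and triangle are replicates 1, 2 and 3, lines are group means, and a star marks an adjusted p under 0.05 from limma. The groups are apart by 1.55 for Ccl6, by 0.02 for Ccl7, and overlap for Ccl2, Cxcl12, Cxcl14 and Cx3cl1.

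Ccl6 encodes a CC chemokine made by macrophages and other myeloid cells that binds the receptor Ccr1. Read as log2 intensity, it reached 10.72, 9.99 and 10.20 in the Rpt3-/- mice and 8.44, 8.44 and 8.23 in the Rpt3+/+ mice. All 3 Rpt3-/- arrays were thus above all Rpt3+/+ arrays, with a gap of 1.55 between the closest arrays of the groups. The averages were 10.3 ± 0.378 (SD, n = 3) and 8.37 ± 0.125 (SD, n = 3), for a log2 fold change of 1.94 (95% interval 1.52 to 2.35, limma adjusted p = 0.000136), or 3.82-fold. This was rank 51 among the 14732 tested genes ordered by rise. Before any normalization the spots stood 1956, 1059 and 1302 intensity units above their local background in Rpt3-/- mice, and 382, 184 and 225 units in Rpt3+/+ mice. Every spot was flagged good. The call was made under all 18 alternative settings tried, with log2 fold changes between 1.34 and 2.13.

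Ccl9 encodes a related CC chemokine that also binds Ccr1 and is known for its abundance in osteoclasts. The probe of Ccl9 gave log2 intensities of 7.95, 7.71 and 8.19 in the Rpt3-/- mice and 6.79, 7.06 and 6.88 in the Rpt3+/+ mice. The groups did not overlap, and the lowest Rpt3-/- array was 0.65 above the highest Rpt3+/+ array. The means were 7.95 ± 0.242 (SD, n = 3) and 6.91 ± 0.138 (SD, n = 3), for a log2 fold change of 1.04 (95% interval 0.70 to 1.38, limma adjusted p = 0.00138), or 2.05-fold. Whether the changes in Ccl9 and Ccl6 differed was not tested. The call on Ccl9 held under 17 of 18 alternatives and was lost with scaling by Actb (log2 fold change 0.32, limma adjusted p = 0.19).

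Ccl6 and Ccl9 are neighbors on chromosome 11 and rose together, so the 250 bases before their start sites are shown, from RefSeq on build GRCm38.p6 and written 5′ to 3′ on the coding strand, which is the minus strand for both. The Ccl6 sequence lies at chr11:83593088-83593337 and the Ccl9 sequence at chr11:83578637-83578886. Capitals mark the longest run of bases that both share and, in Ccl9, a TATAAA match.
Ccl6: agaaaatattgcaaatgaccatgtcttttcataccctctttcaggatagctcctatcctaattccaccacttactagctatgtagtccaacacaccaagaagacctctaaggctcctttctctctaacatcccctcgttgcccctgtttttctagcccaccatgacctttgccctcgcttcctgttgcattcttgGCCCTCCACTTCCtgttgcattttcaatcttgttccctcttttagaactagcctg
Ccl9: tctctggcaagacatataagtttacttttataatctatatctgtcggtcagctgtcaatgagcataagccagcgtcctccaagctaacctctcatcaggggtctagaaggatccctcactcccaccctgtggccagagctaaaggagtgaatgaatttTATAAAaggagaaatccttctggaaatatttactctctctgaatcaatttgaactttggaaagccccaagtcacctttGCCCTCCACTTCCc
The shared run, GCCCTCCACTTCC, is 13 bases long and begins at position -55 in Ccl6 and -14 in Ccl9, counted from the start. It was the longest run shared by any of the 28 pairs among the 8 genes with a sequence, and 3 of 32851 windows of 300 bases around gene starts held it on the coding strand, those of Ccl6, Ccl9 and Gm31822.

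Ccl8 encodes monocyte chemoattractant protein 2, which in the mouse acts through Ccr8. On the log2 scale Ccl8 measured 9.67, 8.03 and 8.96 in the Rpt3-/- mice and 7.14, 7.00 and 6.83 in the Rpt3+/+ mice. Each Rpt3-/- array was above each Rpt3+/+ array, but the Rpt3-/- arrays spread over 1.65, the widest spread of the 10 genes, with the first array highest and the second lowest. The means were 8.89 ± 0.825 (SD, n = 3) and 6.99 ± 0.155 (SD, n = 3), for a log2 fold change of 1.90 (95% interval 1.17 to 2.63, limma adjusted p = 0.00312), or 3.73-fold. The spots stood 868, 240 and 496 units above local background in Rpt3-/- mice and 117, 45.0 and 56.1 units in Rpt3+/+ mice, all flagged good. In the deposited value table, which was made without an offset, the ratio of the group means was 6.36 for Ccl8 and 4.42 for Ccl6. The call on Ccl8 held under 17 of 18 alternatives and was lost in the methods' test after Benjamini-Hochberg adjustment, with an adjusted p of 0.0986.

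The 250 bases before the start of Ccl8, at chr11:82114935-82115184 on the plus strand of GRCm38.p6, are shown because this gene had the largest change in its group of neighbors, with capitals for TATAAA at position -32 from the start and for a GAGGAA match on the other strand, the core that the myeloid transcription factor PU.1 binds.
Ccl8: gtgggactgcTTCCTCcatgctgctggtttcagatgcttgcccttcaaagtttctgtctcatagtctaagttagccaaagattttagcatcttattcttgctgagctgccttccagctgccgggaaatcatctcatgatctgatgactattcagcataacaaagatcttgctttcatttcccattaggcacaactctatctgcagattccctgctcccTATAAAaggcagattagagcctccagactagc
A match to GAGGAA on either strand was present in 28.3% of all windows and TATAAA on the coding strand in 8.32%, and such matches are descriptions of the sequence only.

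Ccl7, monocyte chemoattractant protein 3, is a ligand of Ccr2. The log2 signal of Ccl7 was 7.20, 6.60 and 7.00 in the Rpt3-/- mice and 6.28, 5.91 and 6.59 in the Rpt3+/+ mice. The lowest Rpt3-/- array was 0.02 above the highest Rpt3+/+ array, so the groups were apart by far less than the spread within either. The means were 6.93 ± 0.305 (SD, n = 3) and 6.26 ± 0.338 (SD, n = 3), for a log2 fold change of 0.68 (95% interval 0.22 to 1.13, limma adjusted p = 0.0421), or 1.60-fold. Ccl7 was above background on 1 of the 3 Rpt3+/+ arrays, and the first and second of them were flagged low. The spots stood 97.2, 53.5 and 76.0 units above local background in Rpt3-/- mice and 31.9, 5.10 and 38.7 units in Rpt3+/+ mice. The call on Ccl7 was the least stable of the 5, holding under 8 of 17 alternatives. It was lost without the first Rpt3-/- array (0.54, limma adjusted p = 0.176), without the third of them (0.64, limma adjusted p = 0.138) and without the second Rpt3+/+ array (0.50, limma adjusted p = 0.068), and with scaling by Actb the log2 fold change was -0.17. With plain subtraction of the background, which adds no offset to dim spots, it was 1.80 but missed the threshold (limma adjusted p = 0.104).

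Ccl2, monocyte chemoattractant protein 1, is the best known ligand of Ccr2. Log2 intensities of Ccl2 were 8.46, 8.55 and 8.14 in the Rpt3-/- mice and 8.59, 8.17 and 8.34 in the Rpt3+/+ mice. The groups overlapped, with the highest single value on an Rpt3+/+ array and the lowest on an Rpt3-/- array. The log2 fold change was 0.02 (95% interval -0.34 to 0.38, limma adjusted p = 0.948), so a change of the size seen in Ccl6, Ccl8 or Ccl9 lay outside its interval. All 6 spots of Ccl2 were flagged good, between 145 and 426 units above local background. With scaling by Actb the log2 fold change of Ccl2 was -0.66 (limma adjusted p = 0.0221), about the median of all genes under that scaling. Ccl12, a further Ccr2 ligand of the mouse, had a log2 fold change of 0.14 (limma adjusted p = 0.506), or -0.58 with scaling by Actb.

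By the gene order of the RefSeq annotation, these CC genes fall in 2 runs on chromosome 11 with at most 3 other protein-coding genes between neighbors, and within each run genes that rose lay beside genes that did not pass the test. The first run is Ccl2, Ccl7, Ccl11, Ccl12, Ccl8 and Ccl1, of which Ccl7 and Ccl8 were called. Ccl11 and Ccl1, which are named for their position, had log2 fold changes of -0.01 and 0.18. The second run is Ccl5, Ccl9, Ccl6, Ccl3 and Ccl4, in which the first 3 were called and Ccl3 and Ccl4 had log2 fold changes of -0.13 and 0.00. Ccl3 was above background on 2 of the 3 arrays of each group. Ccl4 had a mean log2 intensity of 12.3 in both groups, beside 12.6 for Actb in Rpt3+/+ mice. Whether that bright probe read Ccl4 alone was not tested. Ccl5 encodes a T cell and monocyte attractant and had a log2 fold change of 0.58 (limma adjusted p = 0.0462). It was above background on 1 of the 3 Rpt3+/+ arrays. Its call was lost without Rpt3-/- array 1 or 3 and without Rpt3+/+ array 2 or 3, with limma adjusted p-values between 0.0577 and 0.172. It was also lost, with limma adjusted p-values from 0.0503 to 0.0524, with median scaling, plain subtraction and the deposited value table, and with scaling by Actb its log2 fold change was -0.23. Since probe sequences were not used here, hybridization of one gene's RNA to a related gene's probe was not tested.

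**Figure D2:**
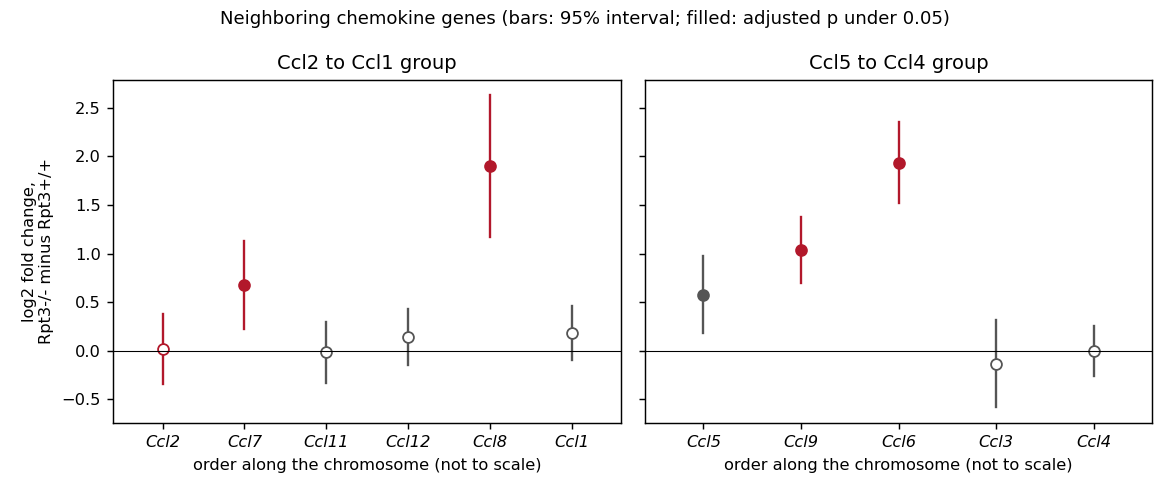
The vertical axis is the log2 fold change of Rpt3-/- over Rpt3+/+ with its 95% interval, and the horizontal axis is gene order along chromosome 11, not to scale. Filled points passed an adjusted p under 0.05 from limma, and red points are genes described here. In the left panel Ccl8 stands at 1.90 between Ccl12 at 0.14 and Ccl1 at 0.18, and in the right panel Ccl6 stands at 1.94 beside Ccl3 at -0.13. Ccl3 was above background on 2 of the 3 arrays of each group.

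Cxcl10 encodes an interferon-induced attractant of T cells and natural killer cells that acts through Cxcr3. For Cxcl10 the log2 signal was 7.36, 7.34 and 7.72 in the Rpt3-/- mice and 7.28, 6.95 and 6.85 in the Rpt3+/+ mice. The groups did not overlap, but the gap between them was 0.06, smaller than the spread within either group. The log2 fold change was 0.45 (95% interval 0.09 to 0.81), which missed the threshold (limma adjusted p = 0.0839). Without the first Rpt3+/+ array, the highest of its group, it passed with 0.57 (limma adjusted p = 0.0174), and with scaling by Actb it was -0.33.

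The promoter of Cxcl10 is a textbook target of interferon and NF-κB signaling, and its sequence is shown because, unlike the windows of Ccl6, Ccl8, Ccl9 and Ccr2, it held matches to both motifs. The 250 bases before its start lie at chr5:92348890-92349139 on the minus strand of GRCm38.p6. Capitals mark 1 match to the interferon response motif (TTTC and TTTC with any 2 bases between) on the other strand at position -213 from the start, and 2 matches to the κB motif (GGGA and CC with any 4 bases between) at -159 and -103.
Cxcl10: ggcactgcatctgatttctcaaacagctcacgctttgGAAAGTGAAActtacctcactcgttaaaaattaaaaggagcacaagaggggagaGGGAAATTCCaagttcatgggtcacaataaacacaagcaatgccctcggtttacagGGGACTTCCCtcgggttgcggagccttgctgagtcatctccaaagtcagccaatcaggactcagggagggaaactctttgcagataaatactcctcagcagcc
Of the 8 genes with a sequence in the table, 1 (Cxcl10) held the κB letters on either strand, beside 20.7% of all windows, and 2 (Cxcl10 and Cxcl14) held the interferon response letters, beside 3.44% of all windows. GAGGAA was held by 2 (Ccl8 and Cx3cl1) and TATAAA by 3 (Ccl8, Ccl9 and Cx3cl1). The windows of Ccl6, Cxcl12 and Ccr2 held none of these 4 motifs, which says only that these letters are not in those windows. Ccl2 and Ccl7 were not among the sequences used here.

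Cxcl14 encodes a chemokine found in many epithelia and in muscle. On its probe the log2 signal reached 7.71, 6.80 and 7.24 in the Rpt3-/- mice and 6.50, 6.92 and 6.62 in the Rpt3+/+ mice. The second Rpt3-/- array lay below the second Rpt3+/+ array, so the groups overlapped. The log2 fold change of 0.57 (95% interval 0.09 to 1.05) missed the threshold (limma adjusted p = 0.0988). It passed without the second Rpt3-/- array (0.79, limma adjusted p = 0.029) and without the second Rpt3+/+ array (0.69, limma adjusted p = 0.0364). The third Rpt3+/+ array was flagged low for this gene, and with scaling by Actb the log2 fold change was -0.18.

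Cxcl12 and Cx3cl1 are made by stromal and endothelial cells as part of normal tissue upkeep. Cxcl12, the ligand of Cxcr4 and of the atypical receptor Ackr3, measured 7.90, 7.93 and 8.21 (log2 intensity) in the Rpt3-/- mice and 7.66, 8.50 and 8.30 in the Rpt3+/+ mice. The Rpt3+/+ arrays enclosed all 3 Rpt3-/- arrays, and the log2 fold change was -0.14 (95% interval -0.60 to 0.32, limma adjusted p = 0.697). With scaling by Actb it was -0.82 (limma adjusted p = 0.00572). Cx3cl1, or fractalkine, is a membrane-bound ligand that is shed by proteases, and it had 2 probes. The brighter gave log2 intensities of 10.64, 10.66 and 10.32 in the Rpt3-/- mice and 10.95, 10.23 and 10.29 in the Rpt3+/+ mice, again with the Rpt3+/+ arrays enclosing the others. Its log2 fold change was 0.05 (95% interval -0.39 to 0.50, limma adjusted p = 0.888). The dimmer probe had a log2 fold change of -0.18 (limma over probes, adjusted p = 0.396), so neither probe passed the test.

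Ccr2 is the receptor that draws classical monocytes from the bone marrow and blood toward Ccl2, Ccl7 and Ccl12. The log2 intensity of Ccr2 was 7.75, 7.63 and 7.64 in the Rpt3-/- mice and 7.06, 6.82 and 6.93 in the Rpt3+/+ mice. The Rpt3-/- arrays lay within 0.12 of each other, the narrowest spread of the 10 genes, and the closest arrays of the groups were 0.56 apart. The means were 7.67 ± 0.0645 (SD, n = 3) and 6.94 ± 0.120 (SD, n = 3), for a log2 fold change of 0.73 (95% interval 0.45 to 1.01, limma adjusted p = 0.00299), or 1.66-fold. The second Rpt3+/+ array was flagged low for Ccr2, 34.7 units above local background, against 107 and 64.1 units on the other Rpt3+/+ arrays and 153 to 169 units on the Rpt3-/- arrays. The call held under 16 of 17 alternatives, leaving out that array among them, with log2 fold changes of up to 1.13. The exception was scaling by Actb, under which the log2 fold change was -0.02 (limma adjusted p = 0.929).

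Of the 12 other conventional chemokine receptors tested, out of 17 listed, 0 were called in either direction by limma. In this list 0 receptors had an unadjusted p under 0.05 in limma or in the methods' test, and 0 had groups that did not overlap. Their median log2 fold change was -0.11. Among the receptors of the ligands described here, Ccr1, the receptor of Ccl6 and Ccl9, had a log2 fold change of -0.10 (limma adjusted p = 0.701). Ccr8, through which Ccl8 acts and which was named after its values were seen, had a log2 fold change of -0.21 (limma adjusted p = 0.403). Ccr3, which binds several CC ligands, had a log2 fold change of -0.50, and Cx3cr1, the receptor of Cx3cl1, of -0.14. Ccr3 was above background on 2 of the 3 Rpt3-/- arrays and 1 of the 3 Rpt3+/+ arrays. Its log2 intensities in the Rpt3+/+ mice were 7.87, 6.54 and 6.59. Ccr8 was above background on 2 of the 3 Rpt3+/+ arrays. The log2 fold change was 0.36 for Cxcr3, the receptor of Cxcl10, and 0.40 for Cxcr4, the receptor of Cxcl12, and neither passed the test. Cxcr4 passed without the second Rpt3-/- array (0.66, limma adjusted p = 0.0241). With scaling by Actb, where the median of all genes was -0.72, Ccr1, Ccr3 and Cx3cr1 were among the receptors called lower. Whether the change in Ccr2 differed from the changes in the other receptors was not tested.

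Of the 4 atypical receptors tested, 2 were lower and 0 higher. Ackr3, which takes up Cxcl12, measured 7.53, 7.75 and 7.76 (log2 intensity) in the Rpt3-/- mice and 8.12, 8.42 and 8.45 in the Rpt3+/+ mice. The groups did not overlap, and the log2 fold change was -0.65 (limma adjusted p = 0.0101). The call was lost without the first Rpt3-/- array (-0.58, limma adjusted p = 0.0524) or without the third Rpt3+/+ array (-0.59, limma adjusted p = 0.0654). Ccrl2, which binds the attractant chemerin, had a log2 fold change of -0.50 (limma adjusted p = 0.0199), and lost its call without Rpt3-/- array 2 or 3 or Rpt3+/+ array 3 (limma adjusted p from 0.0533 to 0.0819). Ackr1 and Ackr2, which bind many inflammatory CC ligands, had log2 fold changes of 0.18 and 0.10 that did not pass the test, or -0.61 and -0.52 with scaling by Actb.

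Of all tested genes 12.7% were higher and 6.56% lower. Among the other chemokine ligands, 22 of 31 listed were tested, 4 were higher, 1 was lower and the median log2 fold change was 0.11. The largest change was in Pf4, platelet factor 4, a CXC chemokine of platelets that macrophages also express. In log2 units Pf4 measured 9.51, 8.69 and 8.85 in the Rpt3-/- mice and 7.64, 7.83 and 7.65 in the Rpt3+/+ mice, a log2 fold change of 1.31 (limma adjusted p = 0.00161) with no overlap. Cxcl9, which shares the receptor Cxcr3 with Cxcl10, had a log2 fold change of 0.96 (limma adjusted p = 0.00353). Cxcl16, a membrane-bound ligand of T cells, had a log2 fold change of 0.73 (limma adjusted p = 0.00841), or -0.10 with scaling by Actb. Cxcl9 and Cxcl16 were each above background on 1 of the 3 Rpt3+/+ arrays. Cxcl15, known as a chemokine of lung epithelium, was lower with a log2 fold change of -0.64 (limma adjusted p = 0.0137). This was the brighter of its 2 probes, and the mean of the probes gave -0.42 (limma adjusted p = 0.123). The brighter probe was above background on 1 of the 3 Rpt3-/- arrays. It did not pass without the first Rpt3-/- array (limma adjusted p = 0.0587) or without the third Rpt3+/+ array (limma adjusted p = 0.0733).

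**Figure D3:**
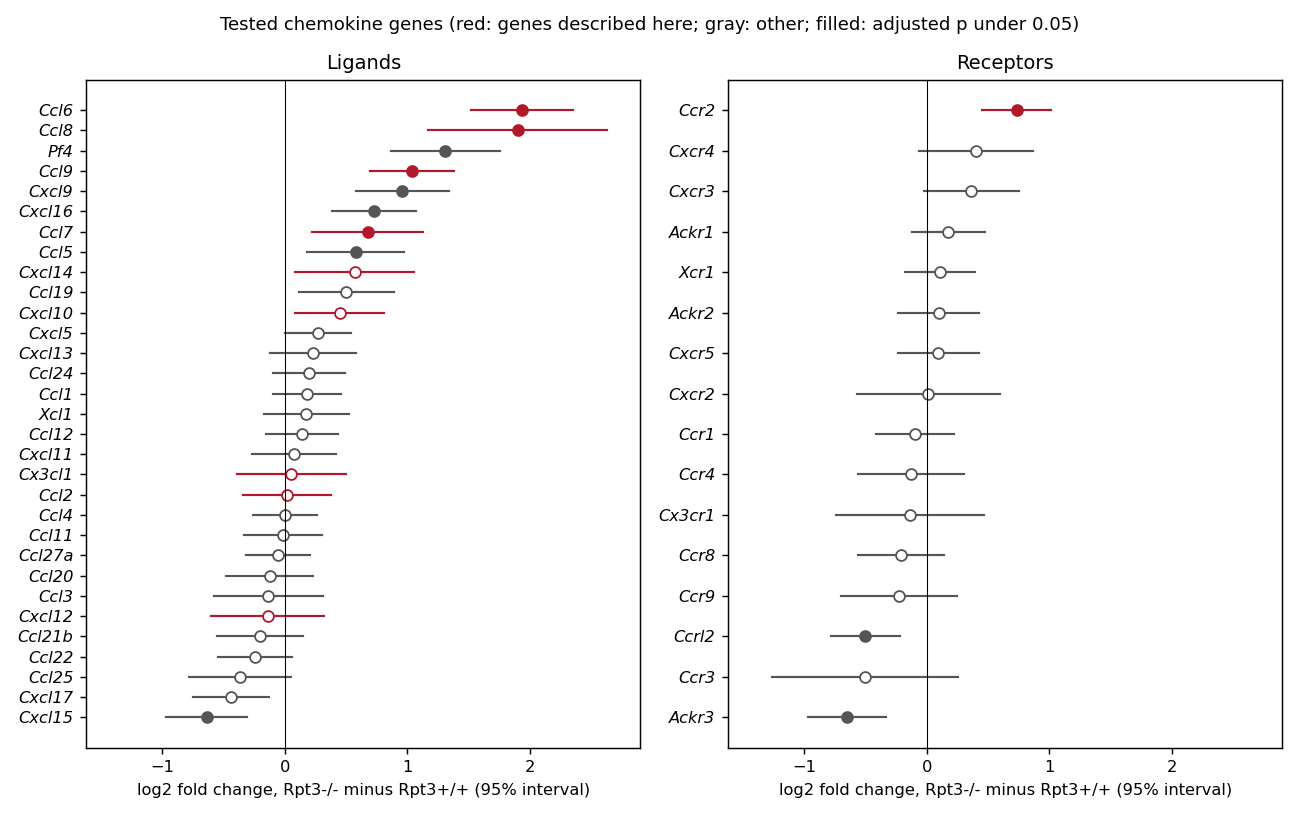
The horizontal axis is the log2 fold change of Rpt3-/- over Rpt3+/+ and bars are 95% intervals, for the tested chemokine ligands (left) and receptors (right, atypical receptors included, 1 receptor not shown). Red marks the genes described here, gray the others, and filled points an adjusted p under 0.05 from limma. Ccl6 and Ccl8 stand at 1.94 and 1.90 among the ligands, and Ccr2 at 0.73 is the filled point on the right side of the receptor panel.

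Enzymes that trim or shed chemokines and cytokines that induce them were also listed. Of 7 processing enzymes tested, among which Adam10 and Adam17 shed Cx3cl1, 0 were called in either direction by limma, with 1 higher at an unadjusted p under 0.05 in limma and 0 in the methods' test. Of 13 upstream cytokines listed 10 were tested, and Ifng, Il1a and Il1b were not. Tnf was above background on 2 of the 3 Rpt3-/- arrays and 1 of the 3 Rpt3+/+ arrays. Of the 10 tested cytokines, 1 was higher, beside 12.7% of all tested genes. This was Tgfb1, a cytokine of wound repair, with a log2 fold change of 0.66 (limma adjusted p = 0.013). The call was lost without the first Rpt3-/- array (0.52, limma adjusted p = 0.0502) or without the third Rpt3+/+ array (0.68, limma adjusted p = 0.0543), and it was -0.10 with scaling by Actb.

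Several of the 10 genes were ordered alike across the 3 Rpt3-/- arrays. With 1 array per mouse, a difference between mice cannot be told apart from one between arrays. The first Rpt3-/- array was the highest of its group for 5 of the 10 genes, namely Ccl6, Ccl7, Ccl8, Cxcl14 and Ccr2. The second was the lowest of its group for 7 genes, namely Ccl6, Ccl7, Ccl8, Ccl9, Cxcl10, Cxcl14 and Ccr2. For Ccr2 and Cxcl10 it was close to the next array, at 7.63 beside 7.64 and 7.34 beside 7.36. The order of the arrays over all tested genes is not given beside these counts. Averaged over the 10 genes and set against their mean over all arrays, the Rpt3-/- arrays stood at 0.56, 0.14 and 0.38 on the log2 scale and the Rpt3+/+ arrays at -0.31, -0.38 and -0.39. These positions are a description of the arrays and carry no test.

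Markers of other cell types moved on the same arrays. Of 10 macrophage markers listed, 8 had a named probe and 6 were tested, and of these 4 were higher and 0 lower, with a median log2 fold change of 0.90. Lyz2, which encodes a lysozyme of myeloid cells, had a log2 fold change of 1.56 (limma adjusted p = 4.9e-05), and Cd14, a receptor for bacterial lipopolysaccharide, of 1.38 (limma adjusted p = 0.000559). Fcgr1, an antibody receptor, had a log2 fold change of 0.98, and Mpeg1, which encodes a pore-forming protein of phagocytes, of 0.81 (limma adjusted p = 0.0414). Of the 3 Rpt3+/+ arrays, Fcgr1 was above background on 1 and Mpeg1 on 2. Mpeg1 was the only one of the 4 to lose its call when 1 array was left out, which happened without any one Rpt3-/- array and without Rpt3+/+ array 3 (limma adjusted p from 0.0632 to 0.167). Mrc1 and Cd163, markers of macrophages resident in tissue, had log2 fold changes of 0.19 and -0.04. Adgre1 and Itgam, which define macrophages and myeloid cells, were not tested because their signal was above background on fewer than 3 arrays. The mean of the 6 tested markers, set against its mean over all arrays, ranged from 0.34 to 0.49 on the Rpt3-/- arrays and from -0.55 to -0.31 on the Rpt3+/+ arrays. The part of this difference in the chemokine results was not tested.

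Of 17 tested interferon-stimulated genes, out of 24 listed, 9 were higher and 0 lower, with a median log2 fold change of 0.54. Bst2, which encodes tetherin, had a log2 fold change of 1.49, and Irf7, a transcription factor of the interferon response, of 1.39 (limma adjusted p = 0.000193). Oasl1 and Oasl2, members of the oligoadenylate synthetase family, had log2 fold changes of 1.22 and 0.99. With scaling by Actb 3 of the interferon-stimulated genes were higher and 6 lower. Their mean, set against its mean over all arrays, ranged from 0.14 to 0.35 on the Rpt3-/- arrays and from -0.37 to -0.22 on the Rpt3+/+ arrays, and its part in the result for Cxcl10 and Cxcl9 was not tested.

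The other marker lists held fewer calls in number, though not in each case a smaller share of the list. Of 8 T and NK cell markers listed 4 were tested, the T cell genes Cd3d, Cd3g, Cd4 and Cd8b1. The NK cell markers Nkg7 and Klrd1 were not tested. Of the 4 tested 0 were called, with 0 at an unadjusted p under 0.05 in limma or in the methods' test. Their mean ranged from -0.06 to 0.10 on the Rpt3-/- arrays and from -0.10 to 0.11 on the Rpt3+/+ arrays. Of 3 neutrophil markers 1 was higher, S100a8 with a log2 fold change of 1.10 (limma adjusted p = 0.000314), a gene that monocytes also express. The other two, named after their values were seen, were Csf3r, the receptor for granulocyte colony-stimulating factor, with -0.33 (limma adjusted p = 0.0735, unadjusted p = 0.0168), and Elane, neutrophil elastase, with -0.11 (limma adjusted p = 0.63). Every Rpt3-/- array lay below every Rpt3+/+ array for Csf3r, the methods' test called it lower also after Benjamini-Hochberg adjustment, plain subtraction did so in limma (adjusted p = 0.043), and the median of the list was -0.11. Of 3 B cell markers 2 were lower, among them Cd79a with -0.64, whose call was lost without any one Rpt3-/- array and without Rpt3+/+ array 1 or 3. Median scaling also took the call of Cd79a (-0.38, limma adjusted p = 0.187). So did an offset of 16, plain subtraction and the deposited value table (limma adjusted p from 0.0655 to 0.0929). In the methods' test without adjustment its p was 0.0569. Of 6 endothelial markers 0 were called, although 1 was lower in limma at an unadjusted p under 0.05 and 0 in the methods' test. Of 7 fibroblast markers 2 were higher, Pdgfra with 0.78 and Col3a1 with 0.55, the latter not without the third Rpt3+/+ array (limma adjusted p = 0.062) and -0.19 with scaling by Actb. Of 8 muscle fiber markers 1 was higher, Myh1 with 0.70, and 2 were lower, Actn3 with -0.64 and Myl1, the gene whose promoter drives the Cre, with -0.85. Actn3 did not pass without the third Rpt3+/+ array (-0.57, limma adjusted p = 0.052). The mean of the fibroblast markers, set against its mean over all arrays, ranged from 0.15 to 0.28 on the Rpt3-/- arrays and from -0.43 to -0.01 on the Rpt3+/+ arrays, and that of the muscle fiber markers from -0.17 to -0.02 and from 0.03 to 0.11. The part of these differences in the chemokine results was not tested. The 0.03 belongs to the third Rpt3+/+ array, where the spot of Acta1 was missing. Acta1 had a mean log2 intensity of 14.8 in both groups, so that array's mean left out a bright marker and cannot be set against the others.

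**Figure D4:**
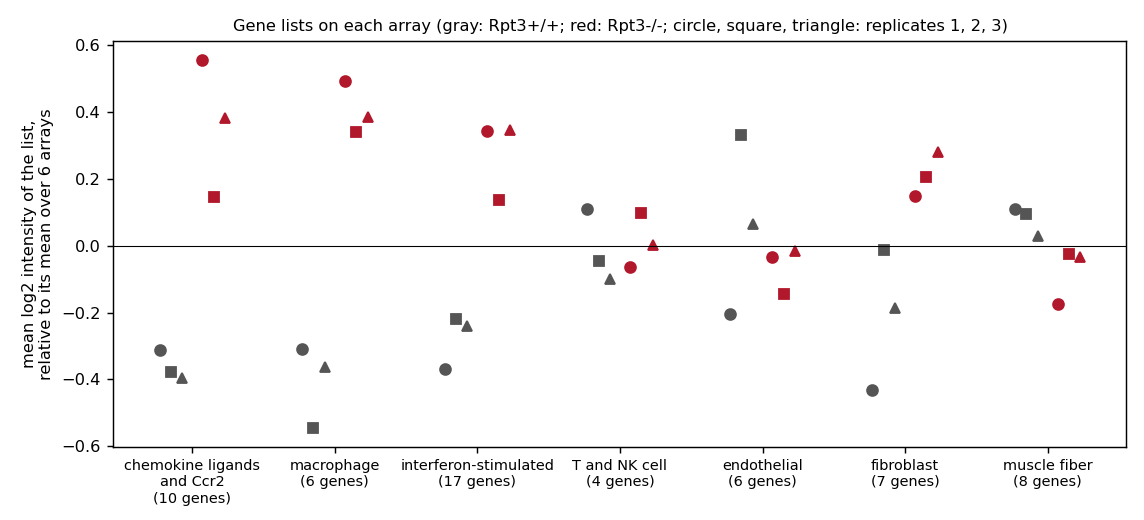
The vertical axis is the mean log2 intensity of each gene list on each array, relative to the mean of that list over the 6 arrays, and the horizontal axis names the lists with the number of genes tested. Gray symbols are Rpt3+/+ arrays and red symbols Rpt3-/- arrays, with circle, square and triangle for replicates 1, 2 and 3. The chemokine, macrophage and interferon-stimulated lists and the fibroblast list have all 3 Rpt3-/- arrays above all 3 Rpt3+/+ arrays, the muscle fiber list has them below, and the T and NK cell and endothelial lists overlap. Only T cell genes of the T and NK cell list were tested. In the muscle fiber list the third Rpt3+/+ array lacks Acta1, a bright marker, so its position cannot be set against the other arrays.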

How the data were processed

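The deposited scanner reports give, for each spot, an intensity, a local background intensity and a quality flag, which the authors exported from CodeLink Expression Analysis 5.0.0.31312 without normalizing arrays to each other. A value table of intensities was deposited too. From its values it holds background-subtracted, quantile-normalized intensities on a linear scale, with a floor of 0.001 and a median of 89.0 in each column, and it served as an alternative.

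Of 34967 transcript probes, 21615 had 1 gene symbol in the platform annotation, 681 had several and were left unnamed, 536 were named through a RefSeq accession, and 12135 had no name here. Masked and contaminated spots were set missing, which affected 51 tested genes. In R 4.3.3 with limma 3.58.1, normexp with an offset of 50 corrected the background, which draws the fold changes of dim probes toward 0. Arrays were then quantile normalized and log2 intensities fitted with lmFit and eBayes. Testing required 1 probe above background on 3 or more of the 6 arrays, the brightest probe stood for the gene, and p-values were adjusted by Benjamini-Hochberg over all 14732 genes. Genes were called at an adjusted p under 0.05. The 10 genes and all lists were chosen with earlier results of these data known. Named were all 10 genes, called genes of each list (of the interferon-stimulated list the 4 largest changes and the lowest adjusted p), the receptors of the ligands, Ccl12, Psmc4, Actb and chromosomal neighbors. Of the macrophage list Cd68 and Csf1r had no named probe.

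The fit was tested on simulated intensities of the 3 against 3 comparison, 14732 genes in all, with changed genes drawn from the brightness range of the 10 genes. Among 50 genes with a true rise of 1 (log2) 27 were called, with a median estimate of 0.83, and of 50 lowered by 1 20 were called. Of 50 genes raised by 0.585 5 were called and of 50 lowered by as much 3, and 3 of 14532 unchanged genes were called. Far fewer genes were changed in the simulation than the 19.3% called in the data, which makes the adjustment stricter. Its spreads were taken from intensities with the offset and put on signals without it. The simulated counts therefore do not give the sensitivity of the fit in these data. Promoter sequences came from RefSeq on GRCm38.p6 (windows of 300 bases, 250 before and 50 after the start), read with Python 3.11.15. Replicate numbers did not pair the arrays. The values of 2 listed genes are not reported here. Precision is limited by the number of arrays and by signal over background.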

Additional observations from a re-analysis of the deposited data

How the results depend on the processing

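Counts of called genes are given as higher and lower in Rpt3-/- mice, in the order all genes, the 10 genes, and the other chemokine pathway genes, which were 1870 and 967, 5 and 0, and 5 and 3 with the settings used above. Scaling by Actb, with a median of -0.72 over all genes, gave 329 and 10331, 2 and 2, and 1 and 42, with 2 and 2 of the macrophage markers and 3 and 6 of the interferon-stimulated genes. It turned the log2 fold change of Ccl2 to -0.66, Ccl7 to -0.17, Ccr2 to -0.023, Cxcl16 to -0.10, Ccl5 to -0.23, Tgfb1 to -0.099, Ccl12 to -0.58, Ackr1 to -0.61, Ackr2 to -0.52, Mpeg1 to -0.063 and Col3a1 to -0.19. Median scaling gave 2555 and 602 over all genes. Requiring signal above background on all 6 arrays, which leaves out Ccl7, Ccr2 and Cxcl14 by construction, gave 3 of the 10 genes higher, 1 other pathway gene higher and 2 macrophage markers higher. The methods' test gave 2502 and 1636 over all genes unadjusted, and with Benjamini-Hochberg adjustment 940 and 427, 3 of the 10 genes higher, 0 and 1 other pathway genes, and 4 interferon-stimulated genes higher. Leaving out 1 array at a time gave 1081 to 2332 higher and 387 to 1418 lower over all genes, 4 to 6 of the 10 genes higher, and 3 to 7 higher and 0 to 3 lower among other pathway genes, the lowest counts of all genes coming without the third Rpt3+/+ array. With a replicate block, which the array deviations did not call for (correlations of 0.13, -0.44 and 0.10 between arrays of one number), the counts were 1722 and 873, 5 and 0, and 5 and 3. Beyond the genes named so far, scaling by Actb took the calls of Cxcl9, Oasl2, Fcgr1, S100a8, Pdgfra and Myh1, the adjusted methods' test those of Pf4, Cxcl9, Cxcl16, Ccl5, Cxcl15, Ackr3, Tgfb1, Bst2, Oasl2, Mpeg1, Pdgfra, Myl1 and Cd79a, and the mean of probes that of Cxcl15. Offset 16 and plain subtraction each left 4 of the 10 genes and 3 macrophage markers higher, and took the calls of Actb, Mpeg1 and Cd79a. No slide block could be fitted, because every array had a slide of its own. The causes of these shifts were not tested.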
